A study of Mus with 2 samples.

Results

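The 8 genes described here are cadherins chosen as a list of symbols, followed across the cell types of the newborn mouse kidney. They are the classical type I cadherins Cdh1 (E-cadherin), Cdh2 (N-cadherin), Cdh3 (P-cadherin) and Cdh4 (R-cadherin), the type II cadherins Cdh5 (VE-cadherin), Cdh6 (K-cadherin) and Cdh11 (OB-cadherin), and Cdh16, the kidney-specific cadherin, which has a short cytoplasmic tail. They are 8 of the 28693 features counted, and all 8 had UMIs in both libraries.

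Cadherins are cell-surface proteins that join neighbouring cells by binding, in the presence of calcium, to cadherins on the next cell. Most hold the actin cytoskeleton inside the cell through catenins, and classical cadherins bind mainly to their own kind. In the developing kidney a condensed mesenchyme of nephron progenitors turns into polarised epithelial tubules, and a switch of cadherins is a textbook part of that change.

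The RNA came from kidneys of P0 (newborn) mice of the genotype Rbpj c/- ; Foxd1cre/+, which carry a floxed and a deleted allele of Rbpj, the DNA-binding partner of Notch receptors. Foxd1Cre acts in the renal interstitium and the cells that derive from it, so the deletion is aimed there and not at the nephron or the ureteric tree. Both libraries, replicates 1 and 2, carried this genotype. Controls of the genotype Rbpj c/+ ; Foxd1cre/+ were not analysed here, so every comparison below is between cell types inside mutant kidneys. Nothing in the labels says that the libraries came from separate animals. The p-values below measure only how differences between types vary between these libraries, with the spread pooled over all types.

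Replicate 1 held 163405630 UMIs and replicate 2 held 135436576. A UMI, or unique molecular identifier, marks 1 captured RNA molecule, read here from its 3′ end and not scaled by transcript length. Barcodes with at least 2000 UMIs and at most 10% mitochondrial UMIs were kept, and after doublet removal 5910 and 4937 cells remained. The libraries shared 8 barcodes. Cell types were gated cell by cell on marker lists that hold none of the 8 genes, which placed 6628 of the 10847 cells (61.1%), and 6167 of these were progenitor, epithelial, endothelial or stromal. Since those markers chose the cells, their high levels in each type are no check of its name. Levels are given as CPM, the gene's UMIs in the sum of a type scaled to a common total. Rbpj was counted at 32.3 and 31.0 CPM in stroma of replicates 1 and 2 and at 63.0 and 58.9 CPM in nephron progenitors. Counts from the 3′ end do not test whether the floxed allele was recombined.

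Each cadherin was high in 1 or a few cell types and low in most others. Cdh5 was highest in endothelium, Cdh11 in stroma, Cdh2 in nephron progenitors and Cdh6 in proximal tubule. Cdh1, Cdh3 and Cdh16 were highest in ureteric epithelium among the 11 types with at least 20 cells in each library. Cdh4 was highest in podocytes by its mean, but there its libraries lay far apart. Distal tubule cells passed the gate only 25 and 13 times, so their levels are a description and enter no test.

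**Figure D1:**
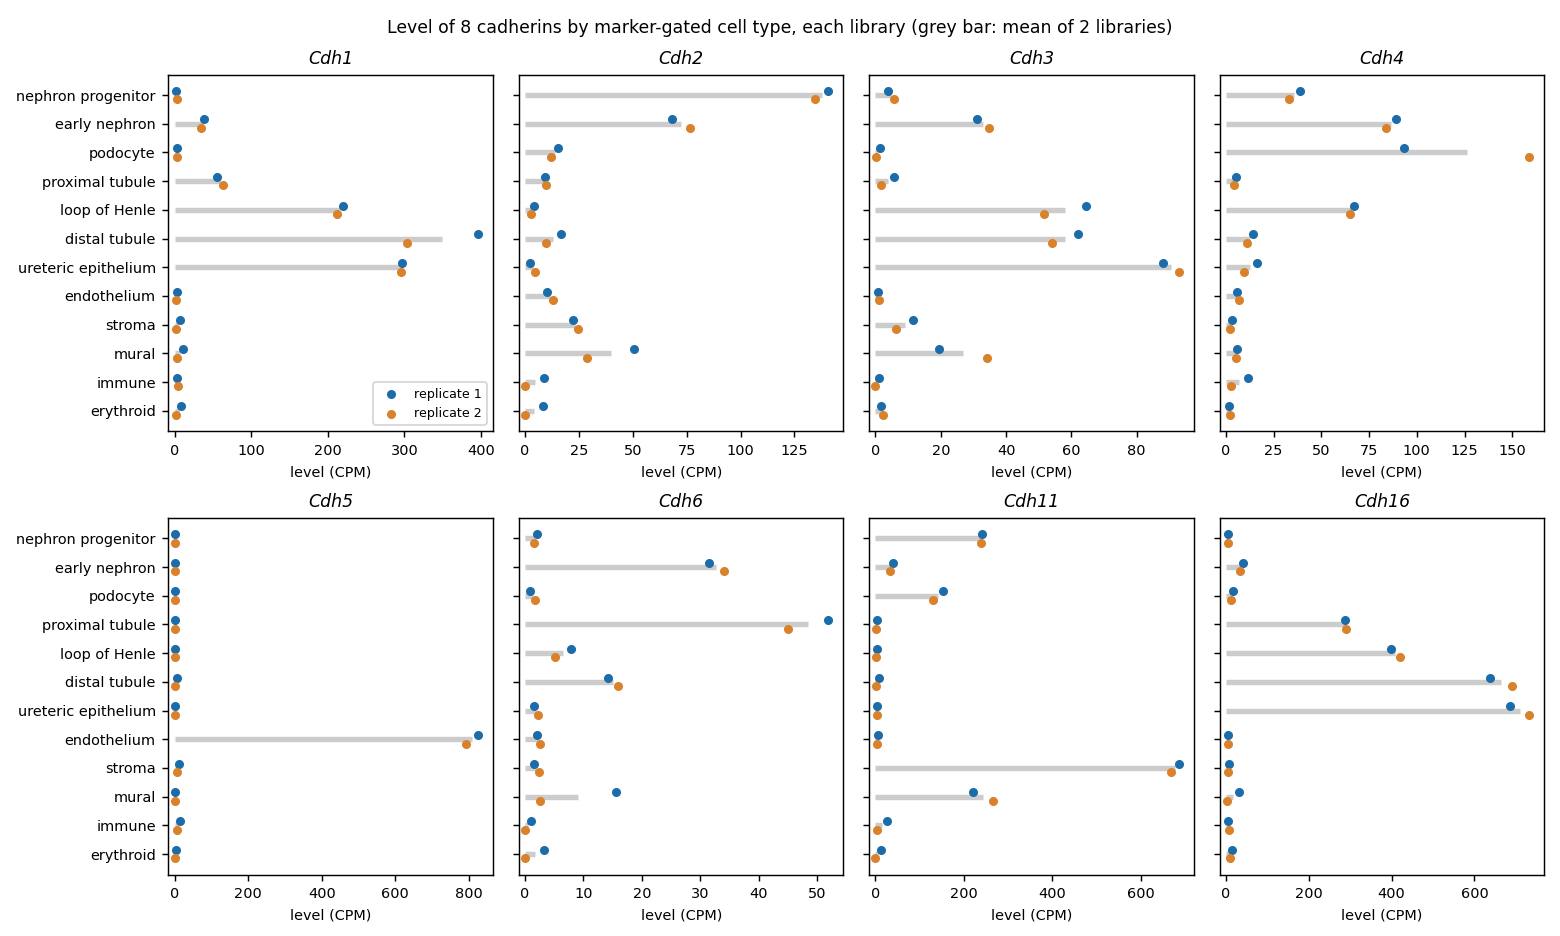
Level of each cadherin (x axis, CPM, linear and scaled per panel) in 12 marker-gated cell types (y axis). Points are the 2 libraries and grey bars their mean: Cdh5 stands at 824 and 793 CPM in endothelium and below 15 CPM in every other type, while the Cdh4 points in podocytes lie far apart at 93.4 and 159 CPM.

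Summed over the 8 genes, cadherins reached 1119 ± 32.9 CPM in ureteric epithelium (mean ± SD, n = 2 libraries here and below), 842 ± 20.2 CPM in endothelium and 734 ± 22.2 CPM in stroma. Podocytes reached 302 ± 22.5 CPM, the lowest of the epithelia, and immune and erythroid cells 48.3 ± 34.6 and 34.7 ± 26.9 CPM. In endothelium 1 gene, Cdh5, made up 96.0% ± 0.33 of these UMIs, and in stroma Cdh11 made up 92.3% ± 1.2. Nephron progenitors were divided between Cdh11 (56.1% ± 0.70), Cdh2 (32.3% ± 0.50) and Cdh4 (8.41% ± 0.75).

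The early nephron was the most mixed type. There 7 of the 8 genes each held between 9.76% (Cdh6) and 25.7% (Cdh4) of the cadherin UMIs, with Cdh5 at 0.173%. In the tubules Cdh16 led, with 69.1% ± 0.69 in proximal tubule, 63.3% ± 1.1 in ureteric epithelium and 53.7% ± 2.4 in loop of Henle. Cdh1 came second in all 3 of these types, at 14.2%, 26.5% and 28.3%. In proximal tubule that rank turned with every cell thinned to 5000 UMIs, where Cdh6 stood at 71.1 and 59.2 CPM and Cdh1 at 64.8 and 54.4 CPM, and with a mitochondrial limit of 5%. In ureteric epithelium at that limit Cdh3 stood above Cdh1 in replicate 2 (140 against 121 CPM) and below it in replicate 1 (116 against 151 CPM). These are shares of captured molecules, and capture can differ from gene to gene.

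**Figure D2:**
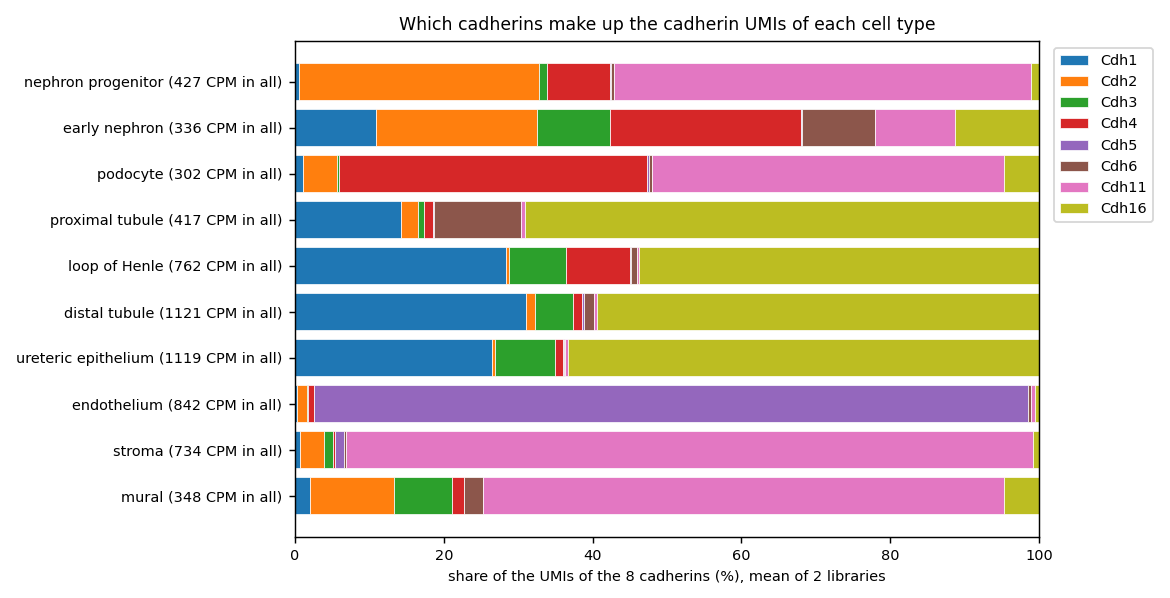
Share of the UMIs of the 8 cadherins that each gene holds (x axis, percent, mean of 2 libraries) in 10 progenitor, epithelial, endothelial and stromal types (y axis, with the summed level of the 8 genes). Endothelium and stroma are bars of nearly 1 colour, at 96.0% Cdh5 and 92.3% Cdh11, and the early nephron is divided among 7 genes.

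Cdh1 holds epithelial sheets together at adherens junctions and is a standard mark of a finished epithelium. It was counted at 297 CPM in ureteric epithelium of replicate 1 and 295 CPM in replicate 2, at 220 and 212 CPM in loop of Henle, at 55.1 and 63.7 CPM in proximal tubule and at 38.2 and 35.1 CPM in the early nephron. The libraries of each of these types did not overlap those of the next. In the 38 distal tubule cells it stood at 396 and 303 CPM. All other types lay between 1.83 and 11.7 CPM, and most neighbours in that range overlapped.

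Cdh16 is made almost only in kidney and lies on the lateral membrane of tubule cells. It was counted at 686 and 732 CPM in ureteric epithelium, 398 and 420 CPM in loop of Henle, 287 and 289 CPM in proximal tubule and 41.5 and 34.6 CPM in the early nephron, an order these 4 types also had for Cdh1. Distal tubule cells held 638 and 692 CPM, and nephron progenitors 3.91 and 5.02 CPM. The early nephron held the 2 genes at about equal counts, while proximal tubule held far more Cdh16 than Cdh1. Over the 11 types the log2 levels of Cdh1 and Cdh16 correlated at Pearson r = 0.97, a description over types that share 2 libraries.

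The levels in tubules depended on the limit set for mitochondrial UMIs. The loss of cells at 5% was not particular to tubules. Nephron progenitors dropped from 731 and 749 cells to 173 and 87, endothelium from 663 and 457 to 233 and 130. Mural cells dropped from 37 and 34 to 8 and 5, while podocytes went from 419 and 295 to 372 and 258. With a limit of 5%, ureteric cells dropped from 160 to 21 in replicate 1 and from 142 to 13 in replicate 2. In those that remained Cdh1 stood at 151 and 121 CPM, Cdh16 at 453 and 292 CPM and Cdh3 at 116 and 140 CPM. Loop of Henle cells dropped to 25 and 31, with Cdh1 at 110 and 140 CPM and Cdh16 at 213 and 284 CPM. Proximal tubule cells dropped from 291 and 214 to 39 and 24, with Cdh16 at 108 and 111 CPM, Cdh6 at 84.3 and 51.6 CPM and Cdh1 at 39.3 and 48.2 CPM.

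Cdh3, a cadherin of basal and branching epithelia in several organs, was counted at 88.2 and 92.9 CPM in ureteric epithelium, 64.5 and 51.6 CPM in loop of Henle, 62.2 and 54.0 CPM in distal tubule and 31.1 and 34.7 CPM in the early nephron. Proximal tubule stood far below these, at 5.73 and 1.83 CPM. Mural cells, gated on smooth muscle and renin-cell markers such as Myh11, Acta2 and Ren1, held 19.4 and 34.1 CPM from 10 and 13 UMIs. Their range overlapped that of the early nephron. The markers do not show whether these cells lay around vessels. The 8 early nephron markers, summed, stood at 600 and 369 CPM in mural cells and at 201 and 193 CPM in stroma. In the early nephron they stood at 2919 and 2941 CPM. Their part in the mural Cdh3 value was not tested.

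Cdh6, a type II cadherin known from early proximal nephron, had the opposite preference among tubules. It stood at 51.9 and 45.1 CPM in proximal tubule and at 31.5 and 34.0 CPM in the early nephron, ranges that did not overlap. Loop of Henle held 7.92 and 5.05 CPM, with a mean of 11.1 CPM in thinned cells from 10 and 5 UMIs, and ureteric epithelium 1.58 and 2.14 CPM. Nephron progenitors, at 2.13 and 1.46 CPM, overlapped ureteric epithelium.

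Cdh2, the cadherin of mesenchyme and nerve tissue, was counted at 141 and 135 CPM in nephron progenitors and at 68.0 and 76.7 CPM in the early nephron. Mural cells held 50.5 and 28.8 CPM, stroma 22.3 and 24.4 CPM and podocytes 15.3 and 12.2 CPM. Proximal tubule held 9.04 and 9.62 CPM, while loop of Henle and ureteric epithelium lay between 2.50 and 4.81 CPM and overlapped. To compare detection at equal depth every cell was thinned at random to 5000 UMIs, leaving out shallower cells. A Cdh2 UMI was then found in 47.5% ± 3.1 of progenitors, against 2.10% ± 2.1 of ureteric cells. In mural cells of replicate 1, 2 cells with over 50000 UMIs gave 73.1% of the Cdh2 UMIs from 25.4% of all UMIs. With every cell thinned mural cells held 17.1 and 18.8 CPM of Cdh2, from 3 UMIs in each library, and stroma 23.0 and 22.6 CPM.

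Cdh11, a cadherin of mesenchymal cells and fibroblasts, was the most abundant member in stroma, at 685 and 669 CPM. Nephron progenitors held 240 and 239 CPM, mural cells 221 and 265 CPM and podocytes 154 and 129 CPM. Mural cells and progenitors could not be ordered, since their ranges overlapped. The early nephron stood at 39.3 and 33.0 CPM, and the tubules and endothelium between 1.26 and 7.10 CPM. In thinned cells 92.5% ± 0.34 of stromal cells and 68.4% ± 0.17 of progenitors held a Cdh11 UMI, against 1.66% ± 0.32 of ureteric cells. Immune cells held 52 UMIs in replicate 1 and 5 in replicate 2, and 1 cell with over 50000 UMIs gave 75.0% of the 52.

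Cdh4, a type I cadherin known from retina and developing kidney, stood at 93.4 CPM in podocytes of replicate 1 and at 159 CPM in replicate 2. The early nephron held 88.9 and 83.6 CPM, loop of Henle 66.9 and 65.2 CPM and nephron progenitors 38.6 and 33.2 CPM. Proximal tubule was low, at 5.28 and 4.26 CPM. The podocyte level rested on few cells. In thinned cells 20.2% ± 6.0 of podocytes held a UMI, against 1.07% of stromal cells, and the 15 and 16 podocytes with over 50000 UMIs gave 45.5% and 65.7% of the Cdh4 UMIs from 24.5% and 33.4% of all podocyte UMIs. With every cell thinned to 5000 UMIs the podocyte level was 57.8 and 70.8 CPM and that of the early nephron 68.7 and 69.1 CPM, which overlapped. In loop of Henle the 46 and 37 cells with over 50000 UMIs gave 86.5% and 76.8% of the Cdh4 UMIs from 75.7% and 67.8% of all UMIs, and the thinned level was 40.6 and 46.0 CPM.

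Cdh5 seals the junctions between endothelial cells and is a defining gene of that cell type. It was counted at 824 and 793 CPM in endothelium, and 95.9% ± 1.7 of thinned endothelial cells held a UMI, against 0.409% of progenitors. Immune cells held 14.5 and 5.55 CPM and stroma 10.8 and 7.23 CPM, which overlapped. In nephron and ureteric types Cdh5 lay between 0.474 and 1.96 CPM, apart from 6.51 and 1.59 CPM in distal tubule. Mural cells held 0 UMIs in 37 and 34 cells, which allows up to 5.83 and 7.86 CPM at 3 counts per library.

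Free RNA limits what low counts can show. Barcodes with 1 to 100 UMIs, far below the limit for a cell, carried Cdh16 at 139 and 152 CPM, Cdh11 at 94.0 and 83.3 CPM, Cdh1 at 71.3 and 64.7 CPM and Cdh5 at 58.8 and 54.2 CPM. Haemoglobin counts put the median cell's share of free RNA between 0.619% and 2.64%, depending on type and library. At that share Cdh5 in nephron progenitors was 0.780 and 1.43 times what free RNA would give. Cdh1 in stroma, at 7.77 and 2.14 CPM, was 4.62 and 2.03 times that amount, and Cdh3 in mural cells 106 and 188 times.

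The step from nephron progenitor to early nephron, the cells with markers of renal vesicles and their first derivatives, covers the change from mesenchyme to epithelium. Of the 8 members 7 passed the test in edgeR at an adjusted p of 0.05, where 41.9% of all 15277 genes tested passed. In the early nephron 5 were higher (22% of all genes) and 2 lower (19.9%). The members' median log2 change was 1.95 and that of all genes -0.01. Without scaling beyond library size the share of all calls that were higher moved from 52.6% to 62.6%, and the calls for the members kept their directions.

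Cdh6 was higher by 4.08 ± 0.20 on the log2 scale (fitted change ± SE, adjusted p = 1.1e-13) and Cdh1 by 3.98 ± 0.20 (adjusted p = 1.6e-13). Cdh16 was higher by 3.02 ± 0.18 and Cdh3 by 2.72 ± 0.22. Under the alternatives these changes reached 5.38 for Cdh6, 4.59 for Cdh1 and 3.77 for Cdh16. Cdh4 was higher by 1.18 ± 0.18 (adjusted p = 9.2e-06), with a value of 0.43 at the lowest of the alternatives. The mesenchymal pair went the other way. Cdh11 fell by 2.82 ± 0.19 on the log2 scale (adjusted p = 3.0e-11). Cdh2 fell by 1.02 ± 0.15 (adjusted p = 7.4e-06), a call that DESeq2 did not make (adjusted p = 0.16), and it was still the second most abundant member in the early nephron. Cdh5 did not pass, at -0.23 with a 95% interval from -1.37 to 0.91.

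**Figure D3:**
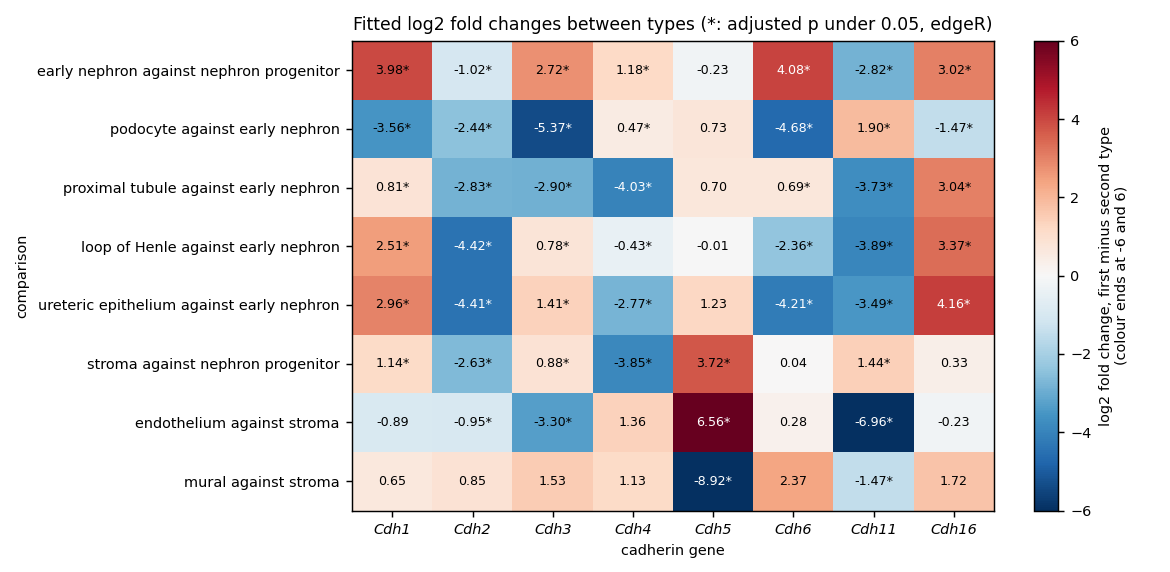
Fitted log2 fold changes of the 8 cadherins (columns) in 8 comparisons of cell types (rows), red for higher in the first type and blue for lower, with an asterisk where the adjusted p was under 0.05. Cdh1 and Cdh16 are red in the early nephron against progenitors (3.98 and 3.02) and in proximal tubule, loop of Henle and ureteric epithelium, and blue in podocytes (-3.56 and -1.47); the value for Cdh5 in mural cells is fitted against 0 UMIs and is no measure of size.

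Podocytes, the filter cells of the glomerulus, arise from the early nephron by another path than the tubules. Here 7 of 8 members passed, and so did 63.3% of all genes. In podocytes 2 members were higher (29.7% of all genes) and 5 lower (33.6%). Cdh1, at 3.37 and 3.10 CPM, was lower than in the early nephron, by -3.56 ± 0.26 on the log2 scale (adjusted p = 3.5e-11). Cdh6 (-4.68 ± 0.30), Cdh2 (-2.44 ± 0.21) and Cdh16 (-1.47 ± 0.19) were lower as well. Under the alternatives the change reached -4.34 for Cdh1, -5.43 for Cdh6 and -2.43 for Cdh16, and was -1.81 at its smallest for Cdh2. Cdh3 was lower on 7 and 1 podocyte UMIs, and its change of -5.37 became -6.90 without replicate 1 and -4.57 without replicate 2.

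Cdh11 was higher in podocytes, by 1.90 ± 0.19 (adjusted p = 1.3e-08). The 11 stromal markers, all of them counted in podocytes, together stood at 662 and 837 CPM in podocytes and at 36.6 and 35.4 CPM in the early nephron, against 15832 and 14703 CPM in stroma. Their part in the Cdh11 value was not tested. Cdh4 passed at 0.47 ± 0.18 (adjusted p = 0.023), but this did not hold. The change was -0.01 without replicate 2 and 0.82 without replicate 1, and in thinned cells it was -0.15 with an adjusted p of 0.47. Its highest value under the alternatives was 1.20, and the call was lost under 3 of the 12 with a test.

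Proximal tubule and loop of Henle both descend from the early nephron, and each had 7 of 8 members passing against it, 3 higher and 4 lower. Of all genes 60.8% passed in proximal tubule (30.8% higher and 30.1% lower) and 51.4% in loop of Henle (26.5% higher and 25% lower). Cdh16 was higher in both, by 3.04 ± 0.14 in proximal tubule (adjusted p = 1.4e-14) and 3.37 ± 0.14 in loop of Henle (adjusted p = 1.1e-14). At their smallest these changes were 1.70, with the mitochondrial limit of 5%, and 2.59, with types from clustering. Cdh1 was higher by 2.51 ± 0.13 in loop of Henle and by 0.81 ± 0.14 in proximal tubule, where its adjusted p of 2.1e-05 became 0.055 with the mitochondrial limit of 5%. Cdh2 was lower in both, by -2.83 ± 0.20 in proximal tubule and -4.42 ± 0.26 in loop of Henle. The proximal value was -4.53 with the limit of 5%, and the loop of Henle value ran from -5.43 in thinned cells to -3.58 with that limit. Cdh11 was lower too, by -3.73 ± 0.32 and by -3.89 ± 0.35. Without doublet removal these changes were -2.50 and -2.03, in thinned cells the first was -4.33, and without replicate 1 the second was -4.69.

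Cdh3 and Cdh6 went in opposite directions in these segments. Cdh6 was higher in proximal tubule (0.69 ± 0.14, adjusted p = 0.00012, 0.064 with DESeq2) and lower in loop of Henle (-2.36 ± 0.20, adjusted p = 1.1e-09). Cdh3 was higher in loop of Henle (0.78 ± 0.18, adjusted p = 0.00095, 0.11 with DESeq2) and lower in proximal tubule (-2.90 ± 0.26, adjusted p = 1.7e-09). The proximal value of Cdh3 was -4.06 without replicate 1 and -2.31 without replicate 2. Cdh4 was lower in proximal tubule (-4.03 ± 0.25, adjusted p = 3.3e-12). In loop of Henle its change of -0.43 ± 0.18 had an adjusted p of 0.0498 that was lost under 8 alternatives, and with types from clustering it was 0.01. Both comparisons share the early nephron sums, and proximal tubule was not tested against loop of Henle.

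Ureteric epithelium grows from the ureteric bud and has another origin than the nephron. Against the early nephron 7 of 8 members passed, with 52.5% of all genes passing. In ureteric epithelium 3 were higher (28% of all genes) and 4 lower (24.6%). Cdh16 was higher by 4.16 ± 0.14 (adjusted p = 2.3e-16), Cdh1 by 2.96 ± 0.13 (adjusted p = 2.7e-14) and Cdh3 by 1.41 ± 0.17 (adjusted p = 4.8e-07). Cdh2 (-4.41 ± 0.26), Cdh6 (-4.21 ± 0.26), Cdh11 (-3.49 ± 0.33) and Cdh4 (-2.77 ± 0.23) were lower. Without doublet removal Cdh11 was at -1.93. With types from clustering Cdh6 was at -6.37, Cdh4 at -2.14, Cdh16 at 3.0 and Cdh3 at 2.02, and in thinned cells Cdh2 was at -3.62.

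Stroma and nephron progenitors are both mesenchymal. In this comparison 6 of 8 members passed, with 50.9% of all genes passing. In stroma 4 were higher and 2 lower, against 25.4% of all genes in each direction. Cdh11 was higher in stroma by 1.44 ± 0.17 (adjusted p = 2.4e-07), while Cdh2 (-2.63 ± 0.20, adjusted p = 1.4e-10) and Cdh4 (-3.85 ± 0.39, adjusted p = 2.2e-08) were lower. With types from clustering Cdh4 was at -5.39. Cdh5 was higher by 3.72 ± 0.36, from 43 and 27 stromal UMIs. It was 3.13 without replicate 1, and ran from 2.60 without doublet removal to 5.94 with free RNA subtracted. The 9 endothelial markers, summed, stood at 90.9 and 91.0 CPM in stroma and at 33.4 and 32.8 CPM in progenitors, and their part in this value was not tested. Cdh1 and Cdh3 passed at 1.14 and 0.88 but were unstable. Cdh1 rested on 31 and 8 stromal UMIs and was -0.35 without replicate 1 and 1.95 without replicate 2, and Cdh3 was 0.10 without replicate 1 and -0.10 with the mitochondrial limit of 5%.

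In endothelium against stroma 4 of 8 members passed, with 45.9% of all genes passing. In endothelium 1 was higher (23.9% of all genes) and 3 lower (22%). Cdh5 was higher by 6.56 ± 0.17 (adjusted p = 5.7e-18), or 89.6-fold in summed UMIs with an exact 95% counting interval from 70.9 to 115, and by 7.39 on the log2 scale with types from clustering. Cdh11 was lower by -6.96 ± 0.26 (adjusted p = 7.5e-16), by -7.54 without replicate 1 and by -5.58 without doublet removal. Cdh3 was lower by -3.30 ± 0.57, by -2.52 without replicate 1 and by -2.22 in thinned cells. Cdh2 was lower by -0.95 ± 0.27 (adjusted p = 0.0050), a call lost with DESeq2 and in thinned cells, with an adjusted p up to 0.17, and at -1.69 with the limit of 5%.

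Mural cells were set against stroma, the type taken as nearest to them. Against stroma 2 of 8 members passed, both lower in mural cells, with 9.62% of all genes passing (5.33% higher and 4.29% lower). Cdh11 was lower by -1.47 ± 0.23 (adjusted p = 0.00011, 0.18 with DESeq2), and by -2.41 with types from clustering. Cdh5 was not counted in mural cells, and its adjusted p of 0.029 rose to 0.38 under the alternatives. Since 0 UMIs allow up to 5.83 and 7.86 CPM there and stroma held 10.8 and 7.23 CPM, no fold is given. Cdh6 (2.37, interval 0.59 to 4.16), Cdh16 (1.72, interval 0.40 to 3.04) and Cdh3 (1.53, interval 0.18 to 2.87) did not pass, with adjusted p of 0.066, 0.074 and 0.13 from 9, 17 and 23 mural UMIs. All 16 Cdh16 UMIs of mural replicate 1 came from 2 cells, and thinned mural cells held 0 and 6.25 CPM of Cdh16.

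Set against the mean of the other types instead, 58 of 88 member tests passed. Endothelium had 8 members passing (41% of all genes passed), early nephron 5 (43.5%), podocytes 6 (42.2%), proximal tubule 6 (43.7%), loop of Henle 6 (36.6%), ureteric epithelium 6 (35.9%), nephron progenitors 6 (45.1%), stroma 6 (36.3%), immune cells 6 (39%) and mural cells 3 (14.6%). Erythroid cells had 0 by edgeR, 2 at an unadjusted p under 0.05 and 3 by DESeq2 (8.42% of all genes passed). In nephron progenitors Cdh2, Cdh4 and Cdh11 were higher, and in podocytes Cdh4 and Cdh11. The early nephron had 5 members higher and 0 lower, where 32.1% of all genes were higher and 11.4% lower.

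These contrasts lean on the scaling. Without scaling beyond library size the median of all genes moved by -2.49 for erythroid cells and by 0.05 to 0.36 on the log2 scale for the others. The share of all calls that were higher went from between 67.0% and 80.6% to between 85.0% and 95.3% in 9 types, from 47.0% to 2.31% in erythroid cells and from 65.9% to 71.7% in immune cells. Without immune and erythroid cells 55 of 72 member tests passed.

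Finer types were gated inside 5 of the types with further markers. In the early nephron, cells with markers of the future proximal segment (62 and 62 cells) were set against those with markers of the future distal segment (121 and 149 cells). Here 5 of 8 members passed, against 11.2% of all 13907 genes tested. In the proximal cells 2 were higher (4.73% of all genes) and 3 lower (6.49%). Cdh1 stood at 15.5 and 21.2 CPM in proximal precursors and at 65.5 and 59.2 CPM in distal ones (-1.83 ± 0.20, adjusted p = 3.1e-08, and -1.13 with the mitochondrial limit of 5%). Cdh3 stood at 9.36 and 14.1 CPM against 58.8 and 59.2 CPM (-2.40 ± 0.27, adjusted p = 8.7e-08). The libraries did not overlap for either gene.

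Cdh6 went the other way, at 54.9 and 56.0 CPM in proximal precursors against 20.1 and 24.7 CPM in distal ones (1.28 ± 0.25, adjusted p = 0.00044, 0.52 in thinned cells). Cdh11 was higher in proximal precursors, at 47.2 and 34.2 against 6.78 and 14.5 CPM (1.96 ± 0.32, adjusted p = 4.7e-05). It was 1.21 without replicate 1 and 2.73 without replicate 2, and its adjusted p reached 0.40 under the alternatives. Cdh4 was lower in proximal precursors, at 69.6 and 39.7 against 111 and 106 CPM (-0.99 ± 0.22, adjusted p = 0.0017, 0.058 with DESeq2). Cdh2 and Cdh16 did not pass, with intervals from -0.19 to 0.67 and from -0.76 to 0.04. In the mature segments, proximal tubule and loop of Henle, the mean levels were 59.4 and 216 CPM for Cdh1 and 3.78 and 58.1 CPM for Cdh3. They were 4.77 and 66.0 CPM for Cdh4, 48.5 and 6.49 CPM for Cdh6 and 2.42 and 2.44 CPM for Cdh11. These segments were not tested against each other. How many of all genes lay on the same side in precursors and mature segments was not counted.

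**Figure D4:**
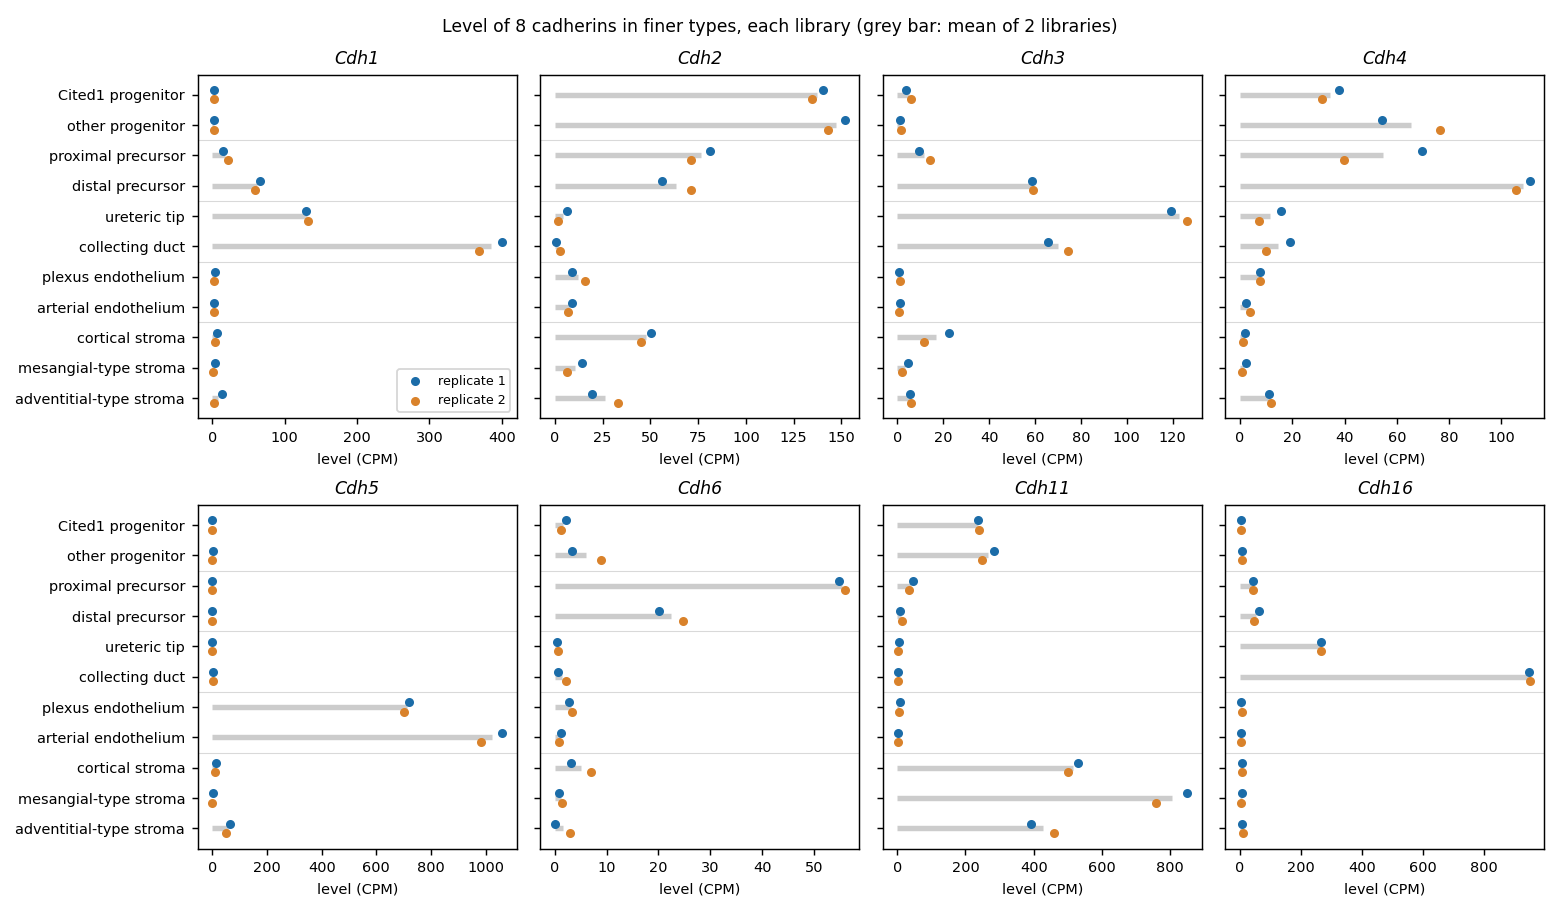
Level of each cadherin (x axis, CPM, linear and scaled per panel) in 11 finer types (y axis), as points per library over a grey bar for the mean. In the ureteric tree Cdh3 is higher in the tip (119 and 126 CPM) while Cdh1 and Cdh16 are higher in collecting duct, and proximal and distal precursors stand on opposite sides for Cdh3 and Cdh6.

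In the ureteric tree, tip cells branch and grow and collecting duct cells mature behind them. Tips (36 and 42 cells) and collecting duct (106 and 90 cells) differed in 3 of 8 members, where 33.9% of all genes passed. In the tip 1 was higher (14.3% of all genes) and 2 lower (19.6%). Cdh1 stood at 129 and 133 CPM in the tip and at 401 and 369 CPM in collecting duct (-1.63 ± 0.13, adjusted p = 1.0e-11). Cdh16 stood at 267 and 266 CPM against 949 and 950 CPM (-1.91 ± 0.13, adjusted p = 1.1e-12). The 6 loop of Henle markers, summed, stood at 45.0 and 91.6 CPM in the tip and at 270 and 274 CPM in collecting duct. In loop of Henle they stood at 2953 and 2594 CPM. Their part in the Cdh1 and Cdh16 values was not tested. Cdh3 was higher in the tip, at 119 and 126 CPM against 65.5 and 74.6 CPM (0.74 ± 0.18, adjusted p = 0.0014). This last call was lost with DESeq2 and in thinned cells, with an adjusted p up to 0.51 and a change between 0.50 and 0.84. A Cdh1 UMI was found in 54.4% ± 9.5 of thinned tip cells and 83.4% ± 0.61 of collecting duct cells, against 1.42% ± 0.84 of progenitors.

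Within endothelium, arterial cells (111 and 87) were set against plexus cells (446 and 309), the small-vessel network. Cdh5 stood at 1060 and 982 CPM in arterial and at 721 and 702 CPM in plexus endothelium, with no overlap. It was the 1 member of 8 that passed (0.45 ± 0.11, adjusted p = 0.0034), where 19.9% of all genes passed (11.3% higher and 8.59% lower). The call was lost with DESeq2, without the library block and without doublet removal, with an adjusted p up to 0.36. Of all calls 56.8% were higher in arterial cells, and 67.3% without scaling. The 9 endothelial markers, summed, stood at 7462 and 6925 CPM in arterial and at 5792 and 5136 CPM in plexus cells. The 11 stromal markers stood at 581 and 298 against 87.6 and 59.9 CPM, with 10 counted in each, and the 7 mural markers at 167 and 142 against 14.8 and 10.3 CPM, with 5 and 6 counted. Their part in the Cdh5 value was not tested.

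In stroma, cells with mesangial-type markers (141 and 141) held Cdh11 at 851 and 760 CPM, against 531 and 501 CPM in cortical stroma (92 and 92 cells). Of the 8 members 4 passed in this comparison, where 5.11% of all genes passed. In mesangial-type cells 1 was higher (2.5% of all genes) and 3 lower (2.6%). The 7 mural markers, summed, stood at 1435 and 1157 CPM in mesangial-type cells and at 732 and 497 CPM in cortical stroma. Their part in these changes was not tested. Cdh11 was higher by 0.65 ± 0.18 (adjusted p = 0.030, up to 0.61 under the alternatives). Cdh2 was lower, at 14.3 and 6.65 CPM against 50.3 and 45.0 CPM (-2.18 ± 0.45, adjusted p = 0.0021), and with the mitochondrial limit of 5% it was -1.43 with an adjusted p of 0.22. Cdh3 was lower on 9 against 32 UMIs and Cdh5 on 2 against 23, and both calls were lost without doublet removal and with the limit of 5%. The Cdh5 change of -3.99 was -5.98 without replicate 1, -3.25 without replicate 2 and -8.43 with free RNA subtracted.

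Stromal cells with adventitial-type markers (42 and 33) differed from cortical stroma in 1 of 8 members, where 14.3% of all genes passed (8.15% higher and 6.15% lower). Cdh5 stood at 63.2 and 51.0 CPM against 15.4 and 9.24 CPM (2.30 ± 0.42, adjusted p = 0.00020, 0.082 without doublet removal). Its UMIs came from 10 of 42 and 4 of 33 cells, and in cortical stroma from 7 of 92 and 5 of 92. All 9 endothelial markers had UMIs in these cells, summed at 93.5 and 201 CPM, against 51.3 and 34.6 CPM in cortical stroma and 5136 to 7462 CPM in endothelium. Their part in the Cdh5 value was not tested. Cdh11, at 393 and 459 CPM, did not pass (interval -0.66 to 0.29).

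Among nephron progenitors, cells with Cited1, a gene of the self-renewing pool, and cells without it differed in 0 of the 8 members by edgeR and in 0 by DESeq2. Of all genes 2.27% passed (1.59% higher and 0.683% lower), of which 69.9% were higher, or 58.1% without scaling. At an unadjusted p under 0.05 there were 2 members, Cdh4 (-0.81, adjusted p = 0.19) and Cdh6 (-1.71, adjusted p = 0.26). The cells without Cited1 numbered 54 and 37. The 8 early nephron markers, summed, stood at 654 and 665 CPM in them, with 6 of the 8 counted, and at 207 and 156 CPM in cells with Cited1, and their part in these values was not tested. The narrowest intervals were those of Cdh2, from -0.45 to 0.41 on the log2 scale, and of Cdh11, from -0.50 to 0.34.

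Cadherins counted in the same type need not be in the same cell, so detection was counted per cell after thinning to 5000 UMIs. Cdh1 and Cdh16 were detected together in 110 of 159 ureteric cells of replicate 1 (69.2%, exact binomial 95% interval 61.4% to 76.3%) and in 90 of 140 of replicate 2 (64.3%, interval 55.8% to 72.2%). The product of the single shares, which independent detection would give, was 67.2% and 60.1%, inside both intervals. Cdh2 and Cdh11 in nephron progenitors were found together in 231 of 722 cells (32.0%) and 254 of 745 (34.1%), with products of 31.1% and 33.9%.

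In the early nephron 2 further pairs are given as a description with no test, since they were picked after their values were seen. Cdh1 and Cdh11 were detected together in 2 of 402 cells (0.498%, interval 0.0603% to 1.79%) and 2 of 411 (0.487%, interval 0.0590% to 1.75%). The products of the single shares were 2.33% and 1.62%. At 10000 UMIs they met in 5 of 385 and 5 of 403 cells, 1.30% and 1.24%, with products of 6.41% and 4.85%. Cdh1 and Cdh3 were together in 7.27% and 7.69% of cells at that depth, with products of 4.45% and 4.85%. Intervals over cells cover counting error only. The early nephron includes proximal and distal precursors, whose Cdh1, Cdh3 and Cdh11 levels are given above.

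**Figure D5:**
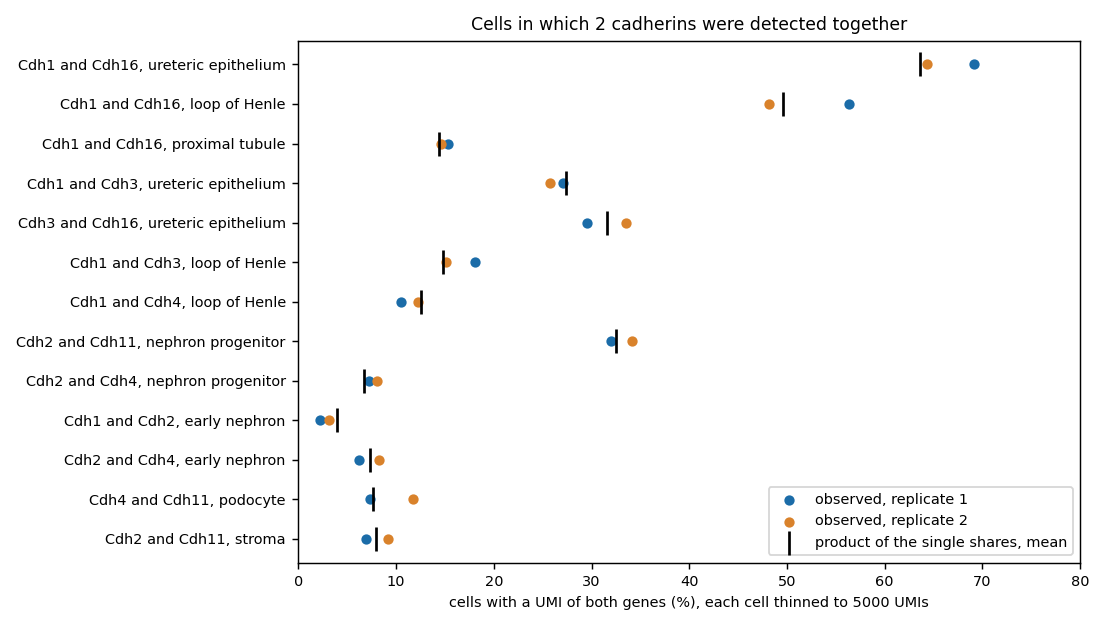
Share of cells in which 2 cadherins were both detected (x axis, percent, cells thinned to 5000 UMIs) for 13 pairs of genes and types (y axis). Points are the libraries and black ticks the mean product of the single shares; most points lie beside their tick, with Cdh1 and Cdh16 in ureteric epithelium highest at 69.2% and 64.3%.

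Counting how many of the 8 genes a thinned cell held, 3 or more were found in 31.4% and 27.1% of ureteric cells and in 26.3% and 21.6% of loop of Henle cells. Endothelial cells held exactly 1 in 84.9% and 79.9% of cells and stromal cells in 75.4% and 74.7%. Podocytes held none in 44.6% and 47.4%, and immune cells none in 86.5% and 85.9%.

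Genes that work with cadherins were followed as lists. Of the catenins and other partners of the cadherin tail, 5 of 10 tested were higher in the early nephron than in progenitors and 0 were lower (22% and 19.9% of all genes), with a median log2 change of 0.58 beside -0.01 for all genes. The largest changes were those of Ctnnal1 (0.80 ± 0.11), Arvcf (0.78 ± 0.13), Ctnna1 (0.59 ± 0.090) and Vcl (0.56 ± 0.13). Jup, plakoglobin, serves both adherens junctions and desmosomes. Against the early nephron it was higher in podocytes (2.21 ± 0.13), ureteric epithelium (1.96 ± 0.13), proximal tubule (1.88 ± 0.13) and loop of Henle (1.74 ± 0.13). In endothelium against stroma 5 of 10 were higher and 1 lower (23.9% and 22% of all genes), led by Jup (2.93 ± 0.15), with a median of 0.75 beside 0.02.

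Desmosomes are the junctions anchored to intermediate filaments, built on desmosomal cadherins. All 5 desmosome genes tested were higher in the early nephron than in progenitors (22% of all genes; median 3.54), among them Dsp (6.03 ± 0.19), Dsg2 (4.30 ± 0.27) and Pkp3 (3.54 ± 0.47). All 5 were higher again in ureteric epithelium than in the early nephron (28% of all genes; median 1.95), led by Dsc2 (4.24 ± 0.31). In podocytes Dsg2 (-2.97 ± 0.32) and Pkp3 (-2.59 ± 0.60) were lower and Pkp2 (1.95 ± 0.18) and Dsp (0.92 ± 0.12) higher, with a median of -1.34. These are 2 of 5 in each direction, where 29.7% of all genes were higher and 33.6% lower. In stroma against progenitors 1 of 5 passed, Pkp2, which was lower (-1.65 ± 0.62), where 50.9% of all genes passed.

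Of 7 transcription factors known to repress Cdh1, 6 passed the filter on low counts. In the early nephron against progenitors 2 were lower, Zeb1 (-3.17 ± 0.15) and Snai2 (-2.29 ± 0.21), and 0 were higher (19.9% and 22% of all genes; median -1.72). In podocytes against the early nephron Zeb1 (2.28 ± 0.16) and Zeb2 (2.14 ± 0.11) were higher and 0 were lower (29.7% and 33.6% of all genes; median 1.48). In ureteric epithelium 4 were lower (24.6% of all genes), led by Zeb2 (-4.46 ± 0.21), but Twist1 was higher (5.64 ± 0.56), and within that tree Twist1 was higher in the tip than in collecting duct (3.30 ± 0.46). In stroma against progenitors 5 were higher and 0 lower (25.4% of all genes in each direction; median 4.20), led by Twist1 (7.36 ± 0.38) and Twist2 (5.84 ± 0.43). Endothelium had 5 lower and 1 higher than stroma (22% and 23.9% of all genes; median -2.66), led by Twist2 (-6.50 ± 0.54), although Cdh1 itself did not pass there (-0.89, interval -1.83 to 0.04).

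Regulators of the epithelial state are the grainyhead-like and Ovol transcription factors and the Esrp splicing factors. In the early nephron against progenitors 5 of 6 were higher (22% of all genes; median 3.08), led by Grhl2 (5.29 ± 0.35) and Esrp2 (4.57 ± 0.58), and in ureteric epithelium against the early nephron 5 of 6 (28% of all genes; median 2.15), led by Ovol2 (4.55 ± 0.51). In podocytes 3 of 6 were lower and 0 higher (33.6% and 29.7% of all genes), led by Ovol1 (-5.04 ± 0.68). Proximal tubule was divided (30.8% of all genes higher and 30.1% lower), with Esrp2 (2.32 ± 0.30) and Ovol2 (2.27 ± 0.63) among 3 higher and Grhl1 (-3.35 ± 0.46) and Esrp1 (-2.69 ± 0.37) among 3 lower. In proximal against distal precursors 3 of 6 were lower (6.49% of all genes), led by Grhl2 (-5.41 ± 0.64) and Esrp1 (-5.23 ± 0.78).

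Of 10 nectins and junction scaffolds, 4 were higher in the early nephron than in progenitors, led by Epcam (4.02 ± 0.13), and 1 was lower (22% and 19.9% of all genes; median 0.21). The lower one, Nectin2 (-0.34), did not pass without scaling beyond library size (-0.25, adjusted p = 0.13). In ureteric epithelium 9 of 10 were higher than in the early nephron (28% of all genes; median 1.33), led by Tjp3 (2.86 ± 0.25). Podocytes had 5 higher and 3 lower (29.7% and 33.6% of all genes; median 0.28). There Nectin4 (4.79 ± 0.31) and Tjp1 (3.34 ± 0.11), a scaffold of the slit diaphragm, were higher and Epcam (-5.35 ± 0.17) and Afdn (-2.87 ± 0.13) lower.

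Of 15 further cadherins 4 passed the filter on low counts. In the early nephron against progenitors 2 of these were lower (19.9% of all genes), Cdh15 (-4.52 ± 0.78) and Cdh22 (-1.73 ± 0.47). Cdh13, which has no cytoplasmic tail, was lower in podocytes (-3.68 ± 0.60) and ureteric epithelium (-4.38 ± 0.61) than in the early nephron, and higher in endothelium (2.11 ± 0.56) and mural cells (3.10 ± 0.88) than in stroma. Among 19 protocadherins and large cadherins tested, 8 were higher and 4 lower in the early nephron than in progenitors (22% and 19.9% of all genes; median 0.13), led by Fat3 (-5.09 ± 0.18) and Pcdh7 (4.87 ± 0.18). In endothelium against stroma 7 were higher and 11 lower (23.9% and 22% of all genes; median -1.15), led by Pcdh17 (7.48 ± 0.28).

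The genes whose log2 levels over the 11 types were most like each member were ranked among 10265 genes with at least 20 CPM in some type. Members and marker genes of the cell types were left out of the naming, so a marker may be more like a member than the genes given. For Cdh1 they were Cldn3, Arhgef38 and Cldn7 (r = 0.99, 0.99 and 0.98), of which Cldn3 and Cldn7 are claudins of tight junctions. For Cdh16 they were Elovl7, Arhgef38 and Ocln (0.98, 0.98 and 0.98), and for Cdh5 Esm1, Sez6l2 and Gimap5 (0.98, 0.98 and 0.97). For Cdh2 they were Rspo1, Hoxc11 and Rem1 (0.92, 0.91 and 0.90), for Cdh11 Mrc2, Ednra and 6030408B16Rik (0.95, 0.95 and 0.94) and for Cdh3 Slit2, Sox9 and Arhgdig (0.94, 0.92 and 0.92). For Cdh6 they were Stxbp5l, Clec18a and Slc47a1 (0.95, 0.95 and 0.92). For Cdh4 the likeness was weakest, with St3gal6, Acvr2b and Rassf10 at 0.88, 0.87 and 0.87.

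By RefSeq positions on GRCm38.p6, 5 of the 8 genes lie on chromosome 8 within 4038 kb. They are Cdh11 (chr8:102632095-102785493), Cdh5 (chr8:104101613-104144504), Cdh16 (chr8:104601915-104624396), Cdh3 (chr8:106510852-106556911) and Cdh1 (chr8:106603350-106670247). Cdh4 lies at chr2:179442423-179899377 and Cdh6 at chr15:13028699-13176407. Cdh3 and Cdh1 are 46.4 kb apart with no protein-coding gene between them. Their log2 levels over types correlated at r = 0.78, and they parted in proximal tubule, where Cdh1 stood at 59.4 ± 6.0 CPM and Cdh3 at 3.78 ± 2.8 CPM. Cdh5 and Cdh16, neighbours among the 5 in this order, had r = -0.41.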

How the data were processed

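The deposited counts are raw UMI counts per gene and barcode for all barcodes. They come from Cell Ranger 4 per the file headers, while the submitters' processing notes name Cell Ranger 6.0.1 and mm10, and the annotation version is not given in the sources used here. The sequences of the 8 genes and their proteins were not used here.

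The 8 members and the gene lists were chosen with earlier results of these data known. Cells were kept at 2000 UMIs or more and at most 10% mitochondrial UMIs. The 310 and 212 cells with the highest Scrublet doublet scores were removed (scanpy 1.11.5, Python 3.11.15). How many to remove was set by an assumed rate of 0.8% per 1000 cells, not by Scrublet's own calls. The median depths of the remaining cells were 11716.5 and 12196 UMIs. A cell joined a type with at least 3 of its markers detected, a marker score of at least 1 SD (5 SD for mural cells) and a lead of at least 0.5 SD over the next type. These limits were chosen after seeing cell numbers and cluster make-up per type, and not cadherin values. Just under the limit of 2000 UMIs lay 70 and 51 barcodes in replicates 1 and 2, and just over it 62 and 51, each within 5% of it. The members were kept out of the clustering (Leiden, igraph 0.11.9), which is used only as an alternative.

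UMIs were summed per library and type and tested with edgeR 4.0.16 (R 4.3.3; quasi-likelihood, TMM, filterByExpr, the library as a block, Benjamini-Hochberg over all genes). DESeq2 1.42.0 was an alternative. All types entered 1 fit of 22 sums with 10 residual degrees of freedom, and finer types another of 34 sums with 16. The planned distal tubule and medullary stroma contrasts were not tested, having under 20 cells in a library. On simulated counts for stroma against nephron progenitor over 15277 genes, 60 of 100 genes changed 2-fold and 85 of 100 changed 4-fold were recovered, with 7 false calls among 14785 unchanged genes. The simulation gave every gene the same dispersion (spread beyond counting error), set above the common dispersion of 0.00415 in the fit. It held no difference between libraries beyond depth. These rates therefore do not measure the sensitivity of the tests reported here.

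Library numbers were given in accession order. The block stands for the library, which is shared by all types in it. The share of free RNA was taken from haemoglobin in the median cell, after a first estimate from summed counts gave an implausible value. Exact Poisson and binomial intervals cover counting error only. Named are all 8 members, the 3 genes most like each (members and marker genes left out), and up to 4 genes with the largest changes per list.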

Additional observations from a re-analysis of the deposited data

How the results depend on the processing

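Of 47 member calls between types 36 passed under all the alternatives with a test and 11 were lost under some, and of 14 between finer types 4 passed under all and 10 were lost under some. The ureteric calls against the early nephron and the mural calls against stroma had no test with the mitochondrial limit of 5%. That limit left 13 ureteric and 5 mural cells in replicate 2. Changes of direction were seen for 4 calls. The log2 change for Cdh4, podocyte against early nephron, was -0.0078 without replicate 2 and 0.82 without replicate 1, and -0.15 with cells thinned to 5000 UMIs. Cdh4 in loop of Henle was 0.0059 with types from clustering. Cdh1 in stroma against progenitors was -0.35 without replicate 1 and 1.95 without replicate 2, and Cdh3 there was -0.10 with the mitochondrial limit of 5%.

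With that limit 5 of 24 finer tests passed, against 14 of 48. Of the 14, 4 were in comparisons that could not be tested there, with under 20 cells in a library, and 5 were lost where the test could be made: Cdh11 in proximal against distal precursors, and Cdh2, Cdh3, Cdh5 and Cdh11 in mesangial-type against cortical stroma. Without scaling beyond library size 7 of 373 list calls in comparisons of 2 types or 2 finer types were lost and 0 turned. The other counts of calls stayed within 1.5 times the reported ones. With no replicate block 58, 45 and 12 calls were made, against 58, 47 and 14, and with DESeq2 67, 44 and 11. Leaving out a library leaves no residual degrees of freedom, so those values carry no test. The thinned sums and the fit without immune and erythroid cells were chosen after seeing the data. Mural cells, finer types and levels of a few CPM are limited by depth.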
